A study of Mus musculus with 44 samples.

Results

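The proteasome genes of mouse germ cells were taken as every array probe whose annotated gene symbol was Psma, Psmb, Psmc, Psmd, Psme, Psmf or Psmg followed by a digit, leaving out Psmc3ip and Psmd8. This rule found 83 of the 45281 probes, which stood for 47 of the 19057 named genes. Psme3ip1, a binding partner of the activator subunit Psme3 and not a subunit itself, matched the rule and was kept, whereas no probe carried the symbol Psmf1. After the filter on dim probes (detection p under 0.05 on at least 5 arrays), 68 of the 83 probes and 40 of the 47 genes remained for testing. The other 7 genes, Psma1, Psma3, Psma6, Psmb11, Psmc6, Psmd3 and Psmg4, were not well above background, since 7 of their 9 probes were detected on no array and none was detected on more than 2. Of the 40 genes tested, 34 were detected on all 44 arrays.

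The proteasome is the protease that breaks down proteins marked with ubiquitin. Its core particle is a barrel of stacked alpha and beta rings whose beta subunits cut the substrate, and a regulatory cap of ATPases and other subunits binds, unfolds and feeds the substrate into it. Dedicated chaperones build both parts, and alternative activators can take the place of the cap. Male germ cells have forms of their own: Psma8 takes the place of Psma7 in the alpha ring of meiotic cells, and Psme4 encodes an activator that is abundant in testis and is known for the removal of acetylated histones.

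RNA was measured on single-channel Illumina BeadChips in spermatocytes, which are in meiosis, and in round spermatids, which have completed it, both from adult mice. In experiment 1, wild-type mice were compared with Th2b+/tag mice, which made TH2B, the testis form of histone H2B, with His, Flag and Ha tags fused to its C terminus, with 6 arrays per genotype and cell type. In experiment 2, wild-type mice were compared with th2bkd mice, described as making no TH2B, with 5 arrays per genotype and cell type. The labels call the arrays biological replicates and do not give a strain, an age in weeks or the way in which the cells were purified. The genotype field of the labels names a different gene, Brdt, so each genotype follows the title of its array and the design text. The probe of H2bc1, the gene of TH2B, was detected on 0 of 22 wild-type arrays and on 5 of 5 kd spermatocyte arrays. Those 5 read 6.61 ± 0.50 (SD) on the log2 scale. It was also detected on 1 of 5 kd spermatid arrays (4.93 ± 0.23), 1 of 6 tag spermatid arrays and 0 of 6 tag spermatocyte arrays. The kd spermatocyte values are opposite to the direction in the group's name, so the kd groups are given below as labelled kd. The transcript this probe matches was not analysed here. Levels below are log2 normalized intensities, which compare arrays for one probe and not one probe with another, differences are given with their standard errors, and a gene was called where limma's moderated test gave a Benjamini-Hochberg adjusted p under 0.05 over all 12260 genes tested.

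Median raw intensity lay between 91.4 and 119, and the number of probes detected on an array between 15997 and 19348. The spermatid arrays carried round spermatid markers at a mean level of 11.96 to 12.31 per array (19 of 22 marker genes measured). In spermatocyte arrays these markers ranged from 9.88 to 11.97 in experiment 1 wild type, from 10.03 to 11.88 in tag, from 9.69 to 10.1 in experiment 2 wild type and from 9.71 to 11.0 in the group labelled kd. Spermatocyte markers (11 of 15 measured) averaged 10.08 and 10.47 in wild-type spermatocytes of experiments 1 and 2 against 9.11 and 9.85 in wild-type spermatids. On the first principal component, wild-type replicate 1 and tag replicates 1 and 2 were the spermatocyte arrays of experiment 1 nearest to the spermatids. In experiment 2 the nearest was replicate 1 of the group labelled kd. These 4 arrays were picked within their experiments. In the whole series, the array labelled kd, at 41.1, lay farther from the spermatids than tag replicate 3 (30.2) and wild-type replicate 2 (40.8) of experiment 1. Leydig cell markers (4 of 7 measured) averaged 9.02 and 9.10 in wild-type spermatocytes against 6.88 and 6.58 in wild-type spermatids, with array means of 8.47 to 9.92 and 6.12 to 7.29, and Star among them was detected on no spermatid array of either wild-type group. Leukocyte markers (6 of 11 measured) averaged 5.21 and 5.13 against 6.61 and 6.01, with array means of 4.94 to 5.79 and 5.92 to 6.92, and C1qa was detected on no wild-type spermatocyte array of experiment 2. Red cell markers (2 of 4 measured) averaged 5.14 and 4.71 against 6.54 and 5.59. The part of any of these cells in the differences between cell types was not tested.

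Between wild-type round spermatids and wild-type spermatocytes, more proteasome genes were called lower in the spermatids than higher. In experiment 1, 20 of the 40 genes were lower and 2 higher, where 33.7% of all genes were lower and 27.8% higher. In experiment 2, 24 were lower and 3 higher, against 35.1% and 26.9% of all genes. In both experiments 19 genes were lower, which is 47.5% of those tested against 29.8% of all genes, and 2 were higher, which is 5% against 23.1%. The median log2 difference over the 40 genes was -0.39 in experiment 1 and -0.46 in experiment 2, beside -0.04 and -0.05 over all genes. No gene was called in opposite directions, and 12 were called in neither experiment. In experiment 1, 14 genes were lower and 1 higher without any overlap between the arrays of the cell types (18.4% and 15.9% of all genes), and in experiment 2, 23 and 3 (30.3% and 23.5%). Without the 4 spermatocyte arrays named above, 22 genes were lower and 1 higher in experiment 1, and 25 and 3 in experiment 2. The values are relative to the RNA on each array, and fewer cells of a type and less RNA per cell cannot be told apart in such bulk samples.

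**Figure D1:**
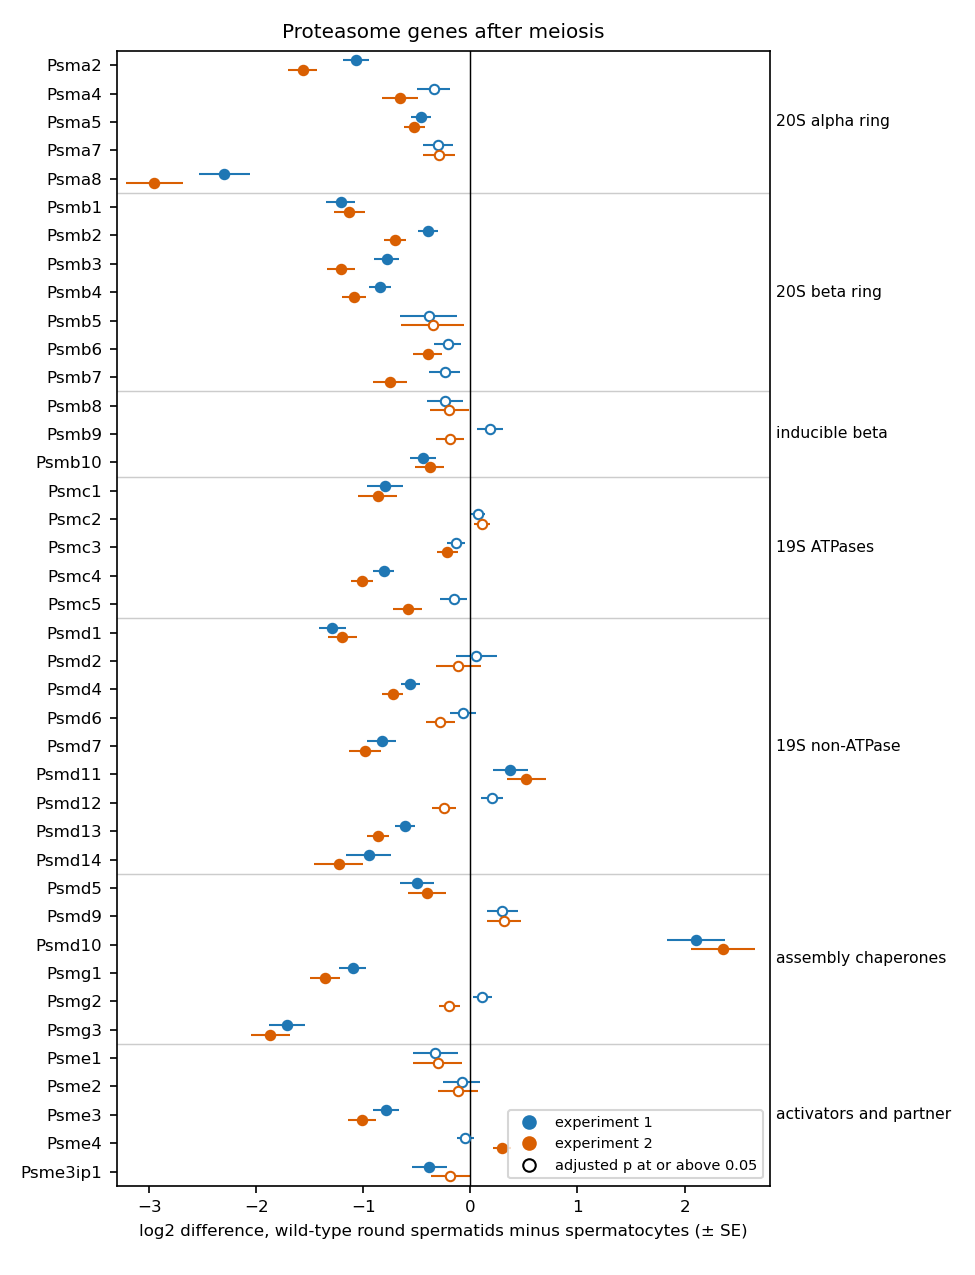
Log2 difference between wild-type round spermatids and wild-type spermatocytes for the 40 proteasome genes tested (horizontal axis, with bars of 1 standard error), grouped by role and shown for experiment 1 (blue) and experiment 2 (orange); filled points were called. Psma8 and Psmg3 lie far to the left in both experiments and Psmd10 alone lies beyond 2 to the right.

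In the alpha ring, the part of the core that gates entry, 3 of 5 measured genes fell in experiment 1 and 4 of 5 in experiment 2. Over all genes, 33.7% and 35.1% were lower. The meiotic form Psma8 had the lowest log2 difference of all 40 genes in both experiments. Its level in experiment 1 ran from 9.87 through a median of 11.33 to 11.61 in wild-type spermatocytes and from 8.02 through 9.0 to 9.26 in wild-type spermatids. In experiment 2 the 5 spermatocyte arrays read 11.41, 11.22, 11.47, 11.41 and 11.69, and the 5 spermatid arrays 8.73, 8.34, 8.21, 8.68 and 8.49. The cell types did not overlap in either experiment. The difference was -2.30 ± 0.24 in experiment 1, a 4.92-fold lower level, and -2.95 ± 0.26 in experiment 2, 7.73-fold lower (adjusted p 6.68e-11 and 1.01e-12). The other kept probe of Psma8 gave -2.25 and -2.81.

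Psma7, the body-wide subunit whose place Psma8 takes, differed by -0.31 ± 0.14 and -0.30 ± 0.15 and was not called (adjusted p 0.0529 and 0.0891), although with the replicate number as a block in the same fit its adjusted p was 0.0216 and 0.0422, and 5 and 3 of 13 alternatives, the block among them, called it. The 95% intervals of its difference, -0.58 to -0.03 and -0.60 to 0.01, did not reach those of Psma8, -2.78 to -1.81 and -3.48 to -2.42. Psma2 fell by 1.06 in experiment 1 and by 1.57 in experiment 2 with no overlap between cell types. Psma5 fell by 0.46 and 0.52, and with cyclic loess normalization the differences were -0.22 and -0.24 and still called. Psma4 fell in experiment 2 by 0.66 (-0.44 with cyclic loess) but was not called in experiment 1 (-0.34, adjusted p 0.0539), where the replicate block (adjusted p 0.0422) and 3 other alternatives called it.

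All 7 genes of the constitutive beta ring had negative differences in both experiments. Of them 4 fell in experiment 1 and 6 in experiment 2, beside 33.7% and 35.1% of all genes. Psmb1, a subunit without a catalytic site of its own, ran from 10.41 through 11.24 to 11.33 in experiment 1 spermatocytes and from 9.52 through 9.99 to 10.06 in spermatids, and fell by 1.21 (adjusted p 1.7e-10) and by 1.13 in experiment 2. Psmb4 and Psmb3, likewise structural subunits, fell by 0.84 and 0.78 in experiment 1 and by 1.09 and 1.21 in experiment 2. The levels of Psmb1, Psmb3 and Psmb4 did not overlap between cell types in either experiment. Psmb2 fell by 0.40 and 0.70, the first of which was -0.26 with cyclic loess.

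Of the catalytic subunits, Psmb5, which carries the chymotrypsin-like site, differed by -0.39 ± 0.27 and -0.35 ± 0.29 and was called in neither experiment. Psmb6 and Psmb7, which carry the caspase-like and trypsin-like sites, were not called in experiment 1 (-0.21 and -0.24) and fell by 0.40 and 0.75 in experiment 2. With cyclic loess these were -0.13 and -0.48, and the call of Psmb6 was lost under it and under median centring. In experiment 1, 2 of the 13 alternatives called Psmb5, 2 called Psmb6 and 1 called Psmb7. Of the inducible subunits that replace these 3 in immune cells, Psmb10 fell in both experiments, by 0.44 and 0.38. Without background correction its differences were -0.22 and -0.20, and with cyclic loess the call in experiment 2 was lost (-0.22, adjusted p 0.154). Psmb8 differed by -0.24 ± 0.17 and -0.20 ± 0.18, and Psmb9 by 0.18 ± 0.12 and -0.19 ± 0.13, with no call (adjusted p from 0.196 to 0.364), although in experiment 1 median centring called Psmb8 and array weights called Psmb9. Psmb8 and Psmb9 were dim, being detected on 31 and 11 of the 44 arrays, and Psmb9 was not well above background on any spermatid array of experiment 2. All 6 measured leukocyte markers were called higher in spermatids in experiment 1 and 3 of 6 in experiment 2, beside 27.8% and 26.9% of all genes. The part of leukocytes in the levels of these subunits was not tested.

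Among the ATPases of the cap, Psmc4 and Psmc1 fell in both experiments. Psmc4 ran from 10.07 through 10.44 to 10.63 in experiment 1 spermatocytes and from 9.50 through 9.61 to 9.69 in spermatids, a difference of -0.81 ± 0.10 (adjusted p 1.77e-09). In experiment 2 it read 10.79, 10.93, 10.87, 11.10 and 11.14 in spermatocytes and 10.01, 10.08, 9.94, 10.003 and 9.74 in spermatids, and it fell by 1.01. Each cell type held its own range in both experiments. Psmc1 fell by 0.80 and 0.87. Psmc5 and Psmc3 fell by 0.59 and 0.21 in experiment 2 and had uncalled differences of -0.16 and -0.14 in experiment 1, and whether these effects differed between experiments was not tested. With cyclic loess the experiment 2 differences were -0.35 and -0.04, and the call of Psmc3 was lost under it, under median centring and on leaving out wild-type spermatocyte replicate 1, 2 or 5 or wild-type spermatid replicate 2, 3 or 4. Psmc2 had small positive differences, 0.07 ± 0.07 and 0.11 ± 0.07, which were not called. Cyclic loess called it in both experiments (0.20 and 0.20), as did the mean of its probes (0.44 and 0.59), and so did 1 other alternative in experiment 1 and 2 in experiment 2.

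The other subunits of the cap divided. Of 9 measured, 5 fell in each experiment, 1 rose in each, and 3 were not called. Over all genes, 33.7% and 35.1% were lower and 27.8% and 26.9% higher in experiments 1 and 2. Psmd1, a large scaffold subunit, ran from 11.37 through 12.18 to 12.32 in experiment 1 spermatocytes and from 10.50 through 10.78 to 10.96 in spermatids, and fell by 1.29 (adjusted p 1.2e-11) and by 1.19 in experiment 2. All spermatid arrays lay below all spermatocyte arrays. Psmd14, the subunit that cuts ubiquitin chains from the substrate, fell by 0.95 and 1.23, and its partner Psmd7 fell by 0.83 and 0.99. Psmd14 was detected on 4 of the 6 wild-type spermatid arrays of experiment 1, and its groups overlapped there. Without background correction its differences were -0.41 and -0.73 and still called. Psmd13 fell by 0.61 and 0.86, and the ubiquitin receptor Psmd4 by 0.56 and 0.72. With cyclic loess these 2 were at -0.34 and -0.33 in experiment 1, both called.

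Psmd11, a scaffold subunit of the lid, went the other way, by 0.37 ± 0.16 in experiment 1 (adjusted p 0.0452) and 0.52 ± 0.18 in experiment 2 (adjusted p 0.0101). Its groups overlapped in experiment 1. Leaving out wild-type spermatocyte replicate 1 or 3, or wild-type spermatid replicate 2, 4, 5 or 6, ended the call in experiment 1, with differences down to 0.29. So did 8 of the 13 other alternatives, and centring each array on its median gave -0.06 in experiment 1 and 0.18, likewise not called, in experiment 2. Its other kept probe gave -0.01 and 0.09. Psmd2 differed by 0.06 and -0.11, Psmd12 by 0.20 and -0.25, and Psmd6 by -0.07 and -0.28, none of them called. In experiment 2, however, 7 of the 13 alternatives called Psmd12 lower, with differences down to -0.40 under median centring, and 5 called Psmd6 lower, down to -0.40. In experiment 1 cyclic loess called Psmd12 higher (0.33). Psmd6 was detected on 18 of 44 arrays.

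The assembly chaperones held the highest difference and, after Psma8, the lowest one in the fit reported here. Psmd10, also called gankyrin, a chaperone of the ATPase ring that is known as an oncoprotein in liver, rose 4.31-fold in experiment 1 and 5.14-fold in experiment 2. In experiment 1 it ran from 7.17 through 7.83 to 9.28 in wild-type spermatocytes and from 9.84 through 10.04 to 10.18 in spermatids. In experiment 2 the spermatocyte arrays read 7.45, 7.05, 7.29, 7.12 and 7.36 and the spermatid arrays 9.65, 9.39, 9.65, 9.68 and 9.71. No spermatocyte array reached the lowest spermatid array. The differences were 2.11 ± 0.27 and 2.36 ± 0.30 (adjusted p 8.88e-09 and 4.36e-09), and the other 2 kept probes gave 2.12 and 2.05 in experiment 1 and 2.07 and 2.51 in experiment 2. The highest spermatocyte value, 9.28, was that of replicate 1 of experiment 1, whose round spermatid markers averaged 11.97, and without it the difference was 2.38.

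Psmg3 and Psmg1, which belong to the chaperone pairs that build the alpha ring, fell. Psmg3 ran from 6.62 through 7.07 to 7.25 in experiment 1 spermatocytes and from 4.83 through 5.31 to 5.82 in spermatids. In experiment 2 it read 7.29, 7.11, 6.96, 7.22 and 7.45 in spermatocytes and 5.36, 5.14, 5.38, 5.31 and 5.49 in spermatids. The cell types lay apart in both experiments, with differences of -1.71 ± 0.17 and -1.87 ± 0.18 (adjusted p 1.16e-11 and 1.1e-11). Without background correction the differences were -0.80 and -0.91, still called but nearer to 0 than those of Psmb1 and Psmd1. Psmg3 was detected on 39 of the 44 arrays. Psmg1 fell by 1.10 and 1.36, likewise without overlap. Psmg2, which pairs with Psmg1, differed by 0.11 ± 0.09 and -0.20 ± 0.10 and was not called. With the replicate block it was lower in experiment 2 (adjusted p 0.0385), as under 4 other alternatives, and in experiment 1 it was higher with cyclic loess (0.23) and with the mean of its probes (0.36). Of the other chaperones of the ATPase ring, Psmd5 fell by 0.50 and 0.41, or by 0.25 and 0.21 without background correction. Its call in experiment 2 was lost with cyclic loess, with no filter on dim probes, and on leaving out wild-type spermatocyte replicate 1, 3 or 5 or wild-type spermatid replicate 2, 3, 4 or 5. Psmd9 differed by 0.30 ± 0.15 and 0.32 ± 0.16 without a call (adjusted p 0.0760 and 0.0832), although with the replicate block it was called in both (adjusted p 0.0416 and 0.0461). Cyclic loess called Psmd9 higher in both (0.38 and 0.49), and array weights and the 2 groups alone did so in experiment 2. Median centring turned it to -0.15 in experiment 1, not called. The mean of its probes turned it to -0.34 in experiment 2, which was called lower (adjusted p from limma 0.0213).

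Of the activators, Psme3, the nuclear one that works without ATP or ubiquitin, fell by 0.79 in experiment 1 and by 1.01 in experiment 2. Its levels ran from 9.04 through 9.49 to 9.72 in experiment 1 spermatocytes and from 8.45 through 8.69 to 8.83 in spermatids, with no overlap there or in experiment 2 (adjusted p 2.29e-07 and 6.41e-09). Psme1 and Psme2, the interferon-inducible pair, were not called, with differences of -0.33 ± 0.21 and -0.30 ± 0.23 for Psme1 and -0.08 ± 0.17 and -0.12 ± 0.19 for Psme2. Median centring alone called Psme1 lower, by 0.73 and 0.63. Psme2 was detected on 23 of the 44 arrays.

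Psme4, the testis activator, did not fall. In experiment 1 it ran from 12.35 through 12.51 to 12.68 in wild-type spermatocytes and from 12.36 through 12.49 to 12.57 in wild-type spermatids, and the groups overlapped almost fully. In experiment 2 the spermatocyte arrays read 12.38, 12.51, 12.65, 12.35 and 12.65 and the spermatid arrays 12.81, 12.87, 12.79, 12.83 and 12.72, with no overlap. The difference was -0.05 ± 0.08 in experiment 1 (adjusted p 0.620) and 0.30 ± 0.08 in experiment 2 (adjusted p 0.00239). The second kept probe of Psme4 was higher in spermatids in both experiments, by 0.99 and 0.87, so that the mean of both probes gave 0.47 in experiment 1 (adjusted p 1.16e-05), the opposite sign, and 0.58 in experiment 2.

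**Figure D2:**
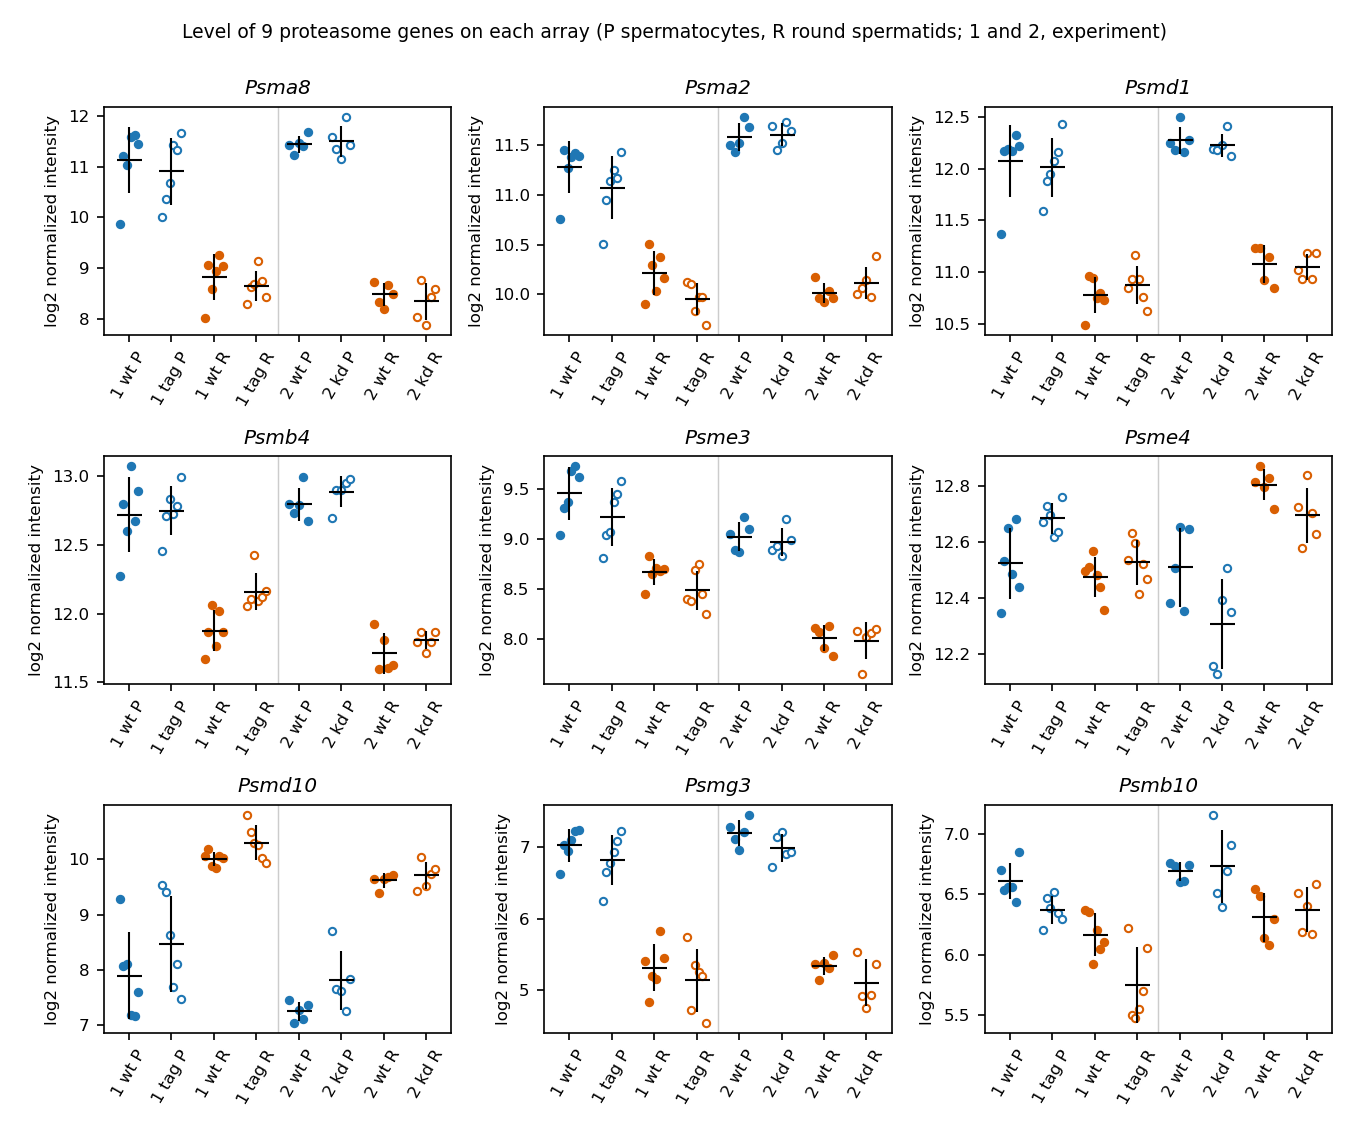
Level of 9 proteasome genes on each of the 44 arrays (log2 normalized intensity, vertical axis; spermatocytes blue, round spermatids orange, wild type filled, tag or kd-labelled open), with the mean and SD of each group in black. Psma8, Psma2, Psmd1, Psmb4, Psme3 and Psmg3 step down and Psmd10 steps up from spermatocytes to spermatids in all 4 pairs of groups, while Psme4 stays within 12.1 to 12.9.

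Several probes of one gene did not always read the same. Of the 21 genes with more than 1 kept probe, 15 had differences of one sign over all their probes in experiment 1, 16 in experiment 2, and 13 in both. Psme3ip1 had calls in opposite directions among its probes. The probe used for the gene fell by 0.38 in experiment 1 (adjusted p 0.0409) and differed by -0.19 in experiment 2, a second gave -0.36 and -0.15, and another was higher by 2.41 and 2.35. The call in experiment 1 was lost in 4 of the 13 alternatives and on leaving out wild-type spermatocyte replicate 2, 4, 5 or 6 or wild-type spermatid replicate 1 or 2, and the mean of the probes gave 0.55 and 0.67, the opposite sign. Psmc2 had a second probe at 0.81 and 1.08, and the second probe of Psmd9 was lower, at -0.46 and -0.99. The transcripts these probes match were not analysed here. With the mean of all kept probes as the gene's value, 5 genes were higher in each experiment and 19 and 25 lower.

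**Figure D3:**
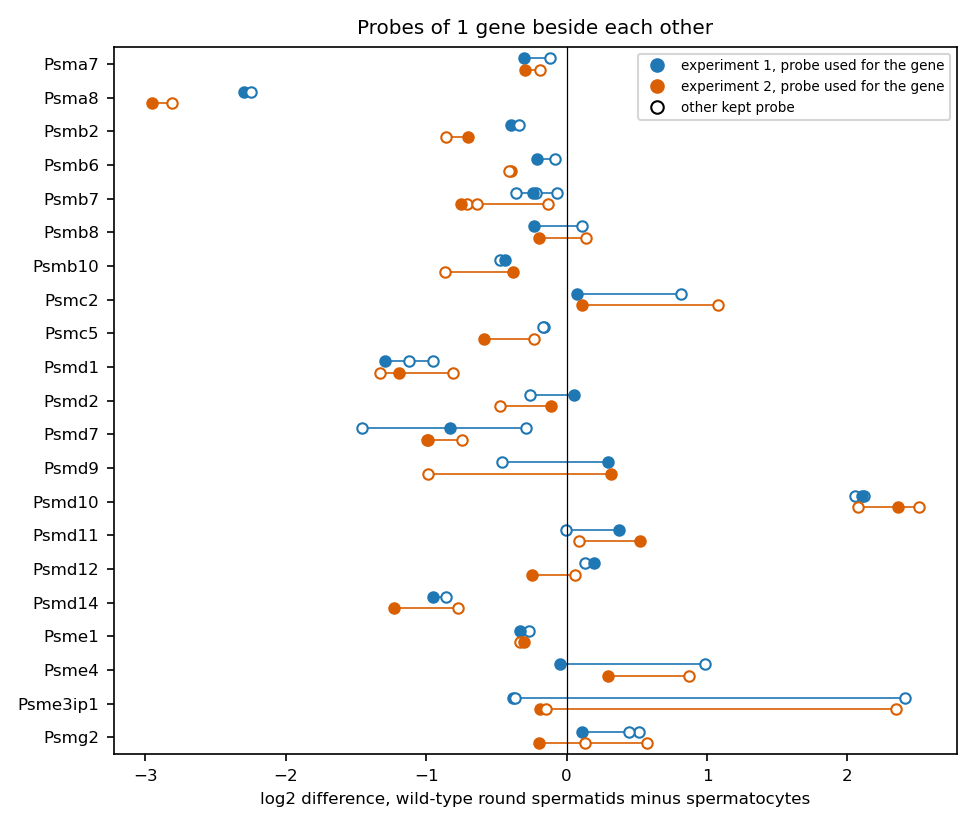
Log2 difference between wild-type round spermatids and spermatocytes for each kept probe of the 21 proteasome genes with several (horizontal axis; experiment 1 blue, experiment 2 orange; filled, the probe used for the gene). The probes of Psma8, Psmd1 and Psmd10 lie on one side of 0, whereas those of Psme3ip1 span from -0.38 to 2.41 in experiment 1.

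Promoters of the proteasome genes, tested or not, were searched for 4 short motifs in the 250 bases before the annotated start (RefSeq, GRCm38.p6), which 39 of the 47 genes had. CCAAT, the box bound by NF-Y, was present on either strand in 15 of 39 windows, 38.5%, against 34.5% of the windows of all 27025 genes and 36.5% of protein-coding ones. The core of the antioxidant response element, TGACNNNGC, through which NFE2L1 is known to drive proteasome genes, was in 5, 12.8%, against 10.1% of all and 10.5% of protein-coding ones. The cAMP response element TGACGTCA was in 0 of 39 against 1.6% of all, and the ETS motif CCGGAAG in 11, 28.2%, against 7.07% of all and 9.15% of protein-coding genes. Of the 15 windows of genes called lower in both experiments, 6 held CCAAT, 4 the ETS motif, and 0 either of the others. The antioxidant and cAMP elements both begin with TGAC but no stretch can match both from the same base, and a match is a description of the sequence only. The 4 windows below show a gene that rose, Psmd10 (chrX:140956712-140956961, minus strand), beside 3 that fell, Psmg3 (chr5:139826895-139827144, minus strand), Psma2 (chr13:14612992-14613241, plus strand) and Psmg1 (chr16:95990961-95991210, minus strand), each from 5′ to 3′ with motif matches in capitals: 3 CCAAT boxes in Psmd10, 2 of them on the opposite strand, none of the 4 motifs in Psmg3, 1 CCAAT box in Psma2 and 1 ETS motif in Psmg1.
Psmd10: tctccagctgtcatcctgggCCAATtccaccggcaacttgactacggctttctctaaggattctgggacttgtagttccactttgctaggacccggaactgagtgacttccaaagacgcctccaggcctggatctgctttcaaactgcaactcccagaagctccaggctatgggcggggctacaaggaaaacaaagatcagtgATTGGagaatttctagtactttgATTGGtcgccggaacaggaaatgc
Psmg3: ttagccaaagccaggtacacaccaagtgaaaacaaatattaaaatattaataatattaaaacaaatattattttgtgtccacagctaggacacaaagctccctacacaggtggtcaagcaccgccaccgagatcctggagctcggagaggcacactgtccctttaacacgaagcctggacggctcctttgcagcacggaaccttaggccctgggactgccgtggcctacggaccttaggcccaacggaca
Psma2: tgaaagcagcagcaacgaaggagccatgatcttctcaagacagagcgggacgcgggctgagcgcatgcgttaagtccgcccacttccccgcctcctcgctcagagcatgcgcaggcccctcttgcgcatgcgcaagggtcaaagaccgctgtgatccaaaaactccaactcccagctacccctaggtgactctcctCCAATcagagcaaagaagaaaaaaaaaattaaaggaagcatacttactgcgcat
Psmg1: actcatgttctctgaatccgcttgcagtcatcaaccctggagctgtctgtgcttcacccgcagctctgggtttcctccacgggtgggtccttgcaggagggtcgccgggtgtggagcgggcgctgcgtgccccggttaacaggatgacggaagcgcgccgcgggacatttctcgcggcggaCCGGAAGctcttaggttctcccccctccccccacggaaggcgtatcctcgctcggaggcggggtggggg

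Genes that serve the proteasome were listed with earlier results of these data known and are described by counts. Of 6 measured proteasome-associated factors, 4 fell and 1 rose in experiment 1, and 2 fell and 0 rose in experiment 2. Over all genes, 33.7% were lower and 27.8% higher in experiment 1, and 35.1% and 26.9% in experiment 2. Pomp, the chaperone that completes the core particle, fell by 1.49 and 1.75, and the ubiquitin ligase Ube3c by 0.44 and 0.50. Of 8 shuttle factors and parts of the unfoldase, 4 fell and 3 rose in experiment 1, and 5 fell and 3 rose in experiment 2, beside the same shares of all genes. The unfoldase Vcp had log2 differences of -1.40 and -1.37 and fell in both experiments, and among its cofactors Ufd1 fell by 1.73 and 2.00 and Nsfl1c by 1.56 and 1.78. Ddi1, a shuttle factor with a protease fold, was higher by 2.23 and 2.94. Nfe2l1, the transcription factor that raises proteasome genes when proteasome activity is low, fell by 0.93 and 0.90. The only measured gene of 7 in the list of ubiquitin genes and activating enzymes, Uba6, fell by 0.48 and 0.39.

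In tag spermatocytes, no proteasome gene of the 40 was called against wild type, beside 5.39% of all genes, and 2 had an unadjusted p under 0.05, beside 14.2% of all genes. No gene had arrays apart between tag and wild type, beside 1.89%. Those 2 with an unadjusted p under 0.05 were Psmd10, higher by 0.58 ± 0.27 (adjusted p 0.316), and Psme4, higher by 0.16 ± 0.08 (adjusted p 0.328), with limma. Psmd10 ran from 7.47 through 8.38 to 9.53 in tag spermatocytes, across the wild-type range of 7.17 to 9.28. Its values of 9.53 and 9.40 in tag replicates 1 and 2 stood beside round spermatid marker means of 11.9 and 11.6, and the part of this in the difference was not tested. Without wild-type replicate 1 the difference of Psmd10 was 0.85 and was called (adjusted p 0.0221). Psma8 differed by -0.22 (95% interval -0.70 to 0.27), Psma7 by 0.00, Psmb8 by -0.30, Psmb9 by 0.07, Psmb10 by -0.24, Psme1 by 0.08, Psme2 by -0.13 and Psme3 by -0.24.

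In tag round spermatids, 1 gene was higher and 1 lower, 5% of the 40 beside 16.2% of all genes (9.47% higher and 6.71% lower). An unadjusted p under 0.05 was found for 4 genes that were higher and 3 that were lower, beside 27.4% of all genes. Psmb4 ran from 11.67 through 11.87 to 12.06 in wild-type spermatids and from 12.05 through 12.11 to 12.43 in tag spermatids, with 1 tag value just under the highest wild-type value. Its difference was 0.29 ± 0.10, with an adjusted p from limma of 0.0489. That call was lost on leaving out wild-type replicate 1, 2, 4 or 6 or tag replicate 2, 3, 4, 5 or 6, and with 4 of the other alternatives. Psmb10 ran from 5.93 through 6.15 to 6.37 in wild-type and from 5.48 through 5.63 to 6.22 in tag spermatids, a difference of -0.41 ± 0.12 (adjusted p 0.0136). Its groups overlapped, its second probe gave -0.05, and 4 of 14 alternatives ended the call, namely median centring, the mean of both probes, cyclic loess and the 2 groups alone (adjusted p 0.106, 0.219, 0.0776 and 0.0556). Without background correction the difference was -0.17 and called.

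With the replicate number as a block, which pairs same-numbered arrays, 4 genes were called in tag spermatids. Those added were Psmd14, higher by 0.42 (adjusted p 0.0343), and Psme3ip1, lower by 0.38 (adjusted p 0.00249). Psme3ip1 was also called lower with the mean of its probes (-0.59, adjusted p from limma 7.98e-07) and with array weights. So it was with the round spermatid marker level as covariate and without wild-type spermatid replicate 1. That other probe of Psme3ip1, higher in wild-type spermatids than in wild-type spermatocytes, was lower in tag spermatids by 1.14. Psmc4 was the only gene whose tag and wild-type spermatid arrays did not overlap, higher by 0.21 ± 0.10 and not called (adjusted p 0.138), which is 2.5% of the 40 where 10.1% of all genes did not overlap. Psma8 differed by -0.17, Psme4 by 0.05, Psma7 by 0.27, Psmb8 by -0.10, Psmb9 by -0.09, Psme1 by -0.17, Psme2 by -0.01 and Psme3 by -0.18, none of them called.

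The groups labelled kd gave no call among the 40 genes in spermatocytes or in round spermatids, beside 1.56% and 1.89% of all genes. In spermatocytes 4 genes had an unadjusted p under 0.05 with limma and in spermatids 1, beside 12.7% and 10.3% of all genes. Psme1 was higher in spermatocytes labelled kd by 0.50 ± 0.23 (adjusted p 0.333), Psme4 lower by 0.20 ± 0.08 (adjusted p 0.273), Psmc4 lower by 0.23 and Psmd6 by 0.29 (limma's adjusted p 0.359 and 0.358). Psme4 read 12.16, 12.13, 12.39, 12.51 and 12.35 in spermatocytes labelled kd, a range that overlapped the wild-type values of 12.35 to 12.65. Peritubular and vascular markers (8 of 11 measured) averaged 6.79 in spermatocytes labelled kd against 5.89 in wild type, Sertoli cell markers (6 of 10) 6.88 against 6.34, red cell markers 5.22 against 4.71 and round spermatid markers 10.28 against 9.91. Leydig cell markers averaged 9.29 against 9.10 and leukocyte markers 5.23 against 5.13. The part of these in the differences was not tested. Psmd12 was lower by 0.25 in spermatids labelled kd (adjusted p 0.388).

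Psma8 had differences between the genotypes of experiment 2 of 0.05 (95% interval -0.48 to 0.59) in spermatocytes and -0.14 (-0.67 to 0.39) in spermatids. Psma7 differed by 0.23 and 0.15, Psmb8 by 0.10 and 0.10, Psmb9 by -0.07 and 0.13, Psmb10 by 0.04 and 0.06, Psme2 by 0.19 and 0.07 and Psme3 by -0.06 and -0.03 in spermatocytes and spermatids. Psmb5, the catalytic subunit, had differences of -0.45 ± 0.29 and -0.50 ± 0.29, with adjusted p from limma of 0.562 and 0.604. Psme3ip1 was the only gene whose arrays labelled kd lay apart from wild type, below it in spermatocytes by 0.23 (not called), where 3.41% of all genes lay apart, and none of the 40 lay apart in spermatids, where 5.29% did. No difference of a genotype effect between the cell types was called for any of the 40 genes, beside 2.5% of all genes for the tag and 0.0489% for the groups labelled kd. The lowest unadjusted p was that of Psmd14 for the tag (difference of effects 0.63 ± 0.30, adjusted p 0.490) and that of Psmd12 for the kd label (-0.38 ± 0.16, adjusted p 1.00), both from limma, and each was the only gene of the 40 under an unadjusted 0.05, beside 9.16% and 4.14% of all genes. Of the other genes of the pathway, Ddi1 alone was called in a genotype comparison, higher by 0.74 in tag spermatocytes (adjusted p 0.0344). Ddi1 was also higher in wild-type spermatids than in wild-type spermatocytes. Round spermatid markers averaged 10.99 in tag spermatocytes against 10.71 in wild type, and the part of this in the difference of Ddi1 was not tested.

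**Figure D4:**
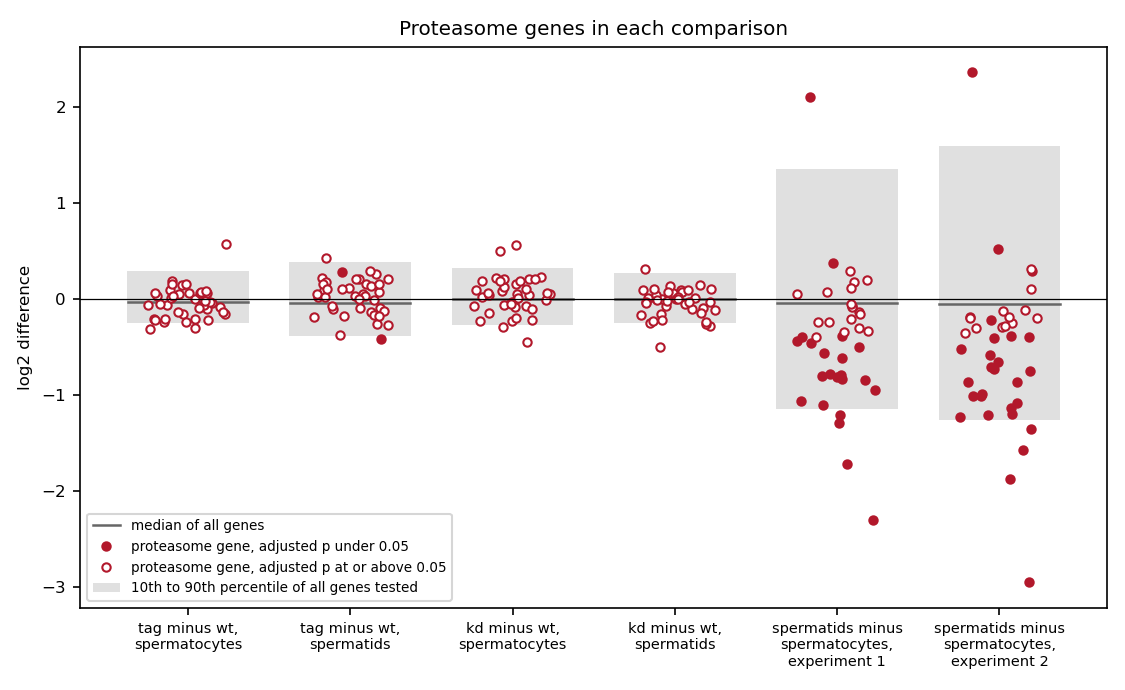
Log2 differences of the 40 proteasome genes (points; filled where called) in 4 genotype comparisons and 2 comparisons of wild-type round spermatids with spermatocytes, beside the 10th to 90th percentile (grey) and the median (line) of all 12260 genes. In the genotype comparisons most points lie within the grey range, and in the comparisons of cell types most lie below 0.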

How the data were processed

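Gene expression was measured in 44 samples on single-channel Illumina BeadChips. The authors deposited non-normalized probe intensity values with a detection p-value for each array, and a processed intensity table whose array medians are nearly equal and which the labels describe as quantile normalized. The raw intensities were background-corrected with normexp, given an offset of 16, quantile normalized between arrays and converted to log2 from the deposited values by neqc of limma 3.58.1 in R 4.3.3. Probes were kept with a detection p under 0.05 on at least 5 arrays (22605 of 45281), and each gene was read by its kept probe of highest mean. A model of 8 group means was fitted to all 44 arrays and 12260 genes, with p-values adjusted by the Benjamini-Hochberg method and a threshold of 0.05. The p-values measure the spread between arrays that the labels call biological replicates; how many there are limits the precision.

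Same-numbered arrays deviated together in the tag and cell type comparisons (each correlation above 0.1, the lowest 0.128), but in the comparisons of the groups labelled kd only 3 of 5 pairs in spermatocytes and 1 of 5 in spermatids did so. Tag spermatocyte replicate 2 correlated more with a wild-type array of another number (0.75) than with its own (0.32). So did tag spermatocyte replicate 6, tag spermatid replicates 2 and 4, and replicate 3 between the cell types of experiment 1. The genes and lists, and the rule for named genes (the germ-cell, inducible and activator forms, plus at most 10 called genes in each direction by size), were chosen with earlier results of these data known. The alternatives were other background corrections, normalizations, filters, probe summaries and models, and leaving out each array. No background correction and the authors' processed intensities gave nearly the same values, such as -0.232 for Psmd12 in experiment 2 under each. Counts of alternatives therefore hold these near-identical settings separately. The fit was tested on simulated data for the tag comparison in spermatids only, with noise drawn independently for each array. Deviations shared between arrays were not simulated, so that test does not cover them.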

Additional observations from a re-analysis of the deposited data

Results flagged for a closer look

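In groups of 5 or 6 arrays, 12 of 115 combinations of gene and group had 1 array far from the others by Dixon's test, where chance gives about 1 in 20. Of these, 6 were low values of wild-type spermatocyte replicate 1 of experiment 1, which lay near the spermatids on the first principal component. They were Psma8 at 9.87, Psmd1 at 11.37, Psmb1 at 10.41, Psmg1 at 8.96, Psma2 at 10.76 and Psmd7 at 9.48. The round spermatid markers averaged 11.97 on that array, and their part in these values was not tested. Without it the log2 difference of Psma8 between the wild-type cell types of experiment 1 was -2.55, against -2.30 with it.

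In tag spermatids, Psmb4 was high in replicate 3 at 12.43 and Psme1 in replicate 4 at 7.34. Psmb8 was high in tag spermatocyte replicate 1 at 5.81, and Psma7 in wild-type spermatocyte replicate 1 of experiment 2 at 8.27. Low values were those of Psme3 in spermatid replicate 2 labelled kd, 7.66, and of Psmd10 in wild-type spermatid replicate 2 of experiment 2, 9.39.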

How the results depend on the processing

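Between wild-type cell types, the count of called genes ranged from 20 to 27 over the alternatives in experiment 1 and from 26 to 32 in experiment 2, and from 21 to 24 and 25 to 28 on leaving out 1 array. The share of called genes that were higher, 9.09% in experiment 1 and 11.1% in experiment 2, was 24% and 19.2% with cyclic loess and 20.8% and 16.7% with the mean of a gene's probes. Centring each array on its median moved the median of all genes to -0.15 and -0.14. Among the genes under the rule for named genes, Psmd11 reversed in experiment 1 under it (-0.0649), as did Psme4 with the mean of its probes (0.47). Outside that rule, the mean of the probes also turned Psme3ip1 to 0.55 and 0.67 in experiments 1 and 2. It turned Psmd9 from 0.32 to -0.34 in experiment 2, a call lower. The cause was not tested.

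In tag spermatids, where 2 genes were called, cyclic loess gave 1, median centring 0, the replicate block 4, array weights 4, the round spermatid marker level as covariate 4, the 2 groups alone 0, the arrays of experiment 1 alone 1, and leaving out 1 array 1 to 2. Leaving out the 4 spermatocyte arrays, an alternative chosen after seeing the data, gave 3. With cyclic loess the calls of Psmb4 and Psmb10 were both lost, and the gene called was Psma2, lower by 0.34 (adjusted p from limma 0.0337). Psma2 was also called lower with array weights and without those 4 arrays. With the mean of a gene's probes, the call of Psmb10 was lost and Psme3ip1 was called lower. In tag spermatocytes, where none was called, the mean of probes gave 1 (Psme3ip1, -0.31), array weights 1 (Psmd10, 0.66), and leaving out 1 array 0 to 1. The replicate block took the counts between cell types to 25 and 30. It gave 0 in tag spermatocytes, in the groups labelled kd and in the differences of effects. No alternative gave a call in the comparisons with the groups labelled kd or in the differences of effects. Single-gene values were compared only for the genes under the rule for named genes, which takes the largest called changes between cell types. Of these 2487 values under the alternatives, 2432 counted as unchanged, 32 lost a call and 17 gained one. Of the unchanged values, 1741 were called in neither fit. Psmc3, Psmd5 and Psme3ip1, whose calls between cell types were lost under several alternatives, fall outside the rule and this count. A called value counted as unchanged if it kept its call and direction. A value called in neither fit counted as unchanged if it moved by less than the SD within groups, even where its sign changed. The slide as a block was not run, because the slides are not given in the sources used here. Psmb8, Psmb9, Psmd6 and Psme2 lie near background, which limits what their values can show. Psmg3 and Psmd14 were detected on 39 and 42 of the 44 arrays, which limits the sizes of their differences as well.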
